A study of Mus musculus with 8 samples.

Results

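The data described here are the liver transcript levels of 10 mouse genes of bile acid synthesis and transport, compared between Nnmt KO and control mice on an MCD diet, which lacks methionine and choline. The 10 genes were taken by their symbols from the 33212 genes of the deposited count table, and all 10 had enough counts to be among the 15291 genes tested. They are Cyp7a1, Cyp8b1, Cyp27a1, Cyp7b1, Hsd3b7, Slc27a5 and Baat for synthesis and conjugation, Slc10a1 and Abcb11 for transport, and Nr0b2 for control of synthesis. RNA-seq was performed on total RNA of whole liver from 4 mice of each genotype, with 1 library per mouse. The labels give the strain C57BL/6 for both groups, and name the groups Nnmt LKO and WT. According to the study's description, the Nnmt KO mice were male Alb-Cre::Nnmt flox/flox mice, in which the albumin promoter drives Cre in hepatocytes, and the male controls were Nnmt flox/flox mice. Both groups received the MCD diet for 8 weeks, and no library is from mice on a normal diet. Other liver cells of the Nnmt KO mice keep Nnmt, and the age of these mice is not given in the sources used here.

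Bile acids are made from cholesterol in hepatocytes, secreted into bile to help the absorption of fat, and taken up again by the liver from portal blood. In the classic route, the first step is 7-alpha-hydroxylation of cholesterol, and in the alternative (acidic) route the side chain is oxidized first. When bile acids accumulate, the nuclear receptor FXR (encoded by Nr1h4) induces their export and induces Nr0b2, whose product SHP dampens synthesis genes that depend on NR5A2 (LRH-1) and HNF4A.

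Promoter sequences are shown for 4 of the genes, Hsd3b7 and Nr0b2 because their libraries did not overlap between genotypes, and Cyp8b1 and Abcb11 because they held a match to a motif of the NR5A2 or FXR pathway. Each is the 250 bases before the gene's start in RefSeq's annotation of GRCm38.p6, written 5′ to 3′ on the strand of the gene. Capitals mark a motif match, and a sequence without capitals held none. The Hsd3b7 sequence is from chr7:127800359-127800608 (plus strand), that of Nr0b2 from chr4:133553126-133553375 (plus strand), that of Cyp8b1 from chr9:121916306-121916555 (minus strand) and that of Abcb11 from chr2:69342617-69342866 (minus strand).
Hsd3b7: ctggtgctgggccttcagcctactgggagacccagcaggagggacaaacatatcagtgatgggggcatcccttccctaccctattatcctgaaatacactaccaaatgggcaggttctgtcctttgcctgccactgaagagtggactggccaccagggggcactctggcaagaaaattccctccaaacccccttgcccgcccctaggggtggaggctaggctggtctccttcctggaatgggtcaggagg
Nr0b2: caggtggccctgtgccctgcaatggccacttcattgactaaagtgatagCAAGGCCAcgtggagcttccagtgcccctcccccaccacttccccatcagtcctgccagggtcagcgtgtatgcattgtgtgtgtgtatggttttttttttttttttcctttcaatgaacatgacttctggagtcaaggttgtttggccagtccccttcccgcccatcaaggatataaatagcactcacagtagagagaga
Cyp8b1: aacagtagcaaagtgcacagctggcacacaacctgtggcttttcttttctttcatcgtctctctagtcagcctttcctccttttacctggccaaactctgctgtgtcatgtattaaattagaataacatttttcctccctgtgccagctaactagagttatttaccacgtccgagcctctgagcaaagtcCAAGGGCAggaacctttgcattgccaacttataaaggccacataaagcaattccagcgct
Abcb11: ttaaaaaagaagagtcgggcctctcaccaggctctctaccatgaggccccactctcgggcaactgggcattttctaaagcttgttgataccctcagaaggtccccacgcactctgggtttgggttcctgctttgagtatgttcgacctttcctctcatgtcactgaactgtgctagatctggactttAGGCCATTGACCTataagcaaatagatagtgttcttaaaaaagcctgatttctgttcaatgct

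The motifs searched on both strands were CAAGGNCA, the single site that NR5A2 is known to bind, and AGGNCANTGNCCT, an inverted repeat with 1 base between its arms of the kind bound by FXR. Both contain the letters AGGNCA. Nr0b2 held CAAGGCCA from 201 to 194 bases before its start, and Cyp8b1 held CAAGGGCA from 60 to 53 bases before its start. The NR5A2 site was found in 1816 of 32851 RefSeq promoter windows of the same length (5.53%). Abcb11 held the inverted repeat AGGCCATTGACCT from 63 to 51 bases before its start, a motif found in 28 of the 32851 windows (0.0852%). Promoter windows were matched for 6 of the 10 genes, 7 windows in all, since Slc10a1 has a pair of starts, and Hsd3b7, Cyp27a1 and Slc10a1 held neither motif. Cyp7a1, Cyp7b1, Slc27a5 and Baat were not matched.

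Gene positions are from GENCODE M21 on GRCm38. Among the synthesis genes, this annotation places Cyp8b1 (ENSMUSG00000050445) on chromosome 9 from 121914356 to 121916305 (minus strand), Cyp27a1 (ENSMUSG00000026170) on chromosome 1 from 74713574 to 74737892 (plus strand) and Cyp7b1 (ENSMUSG00000039519) on chromosome 3 from 18071950 to 18243338 (minus strand). The conjugation genes are Slc27a5 (ENSMUSG00000030382) on chromosome 7 from 12988346 to 12998192 (minus strand) and Baat (ENSMUSG00000039653) on chromosome 4 from 49489422 to 49506557 (minus strand). The transporter genes are Slc10a1 (ENSMUSG00000021135) on chromosome 12 from 80953183 to 80968705 (minus strand) and Abcb11 (ENSMUSG00000027048) on chromosome 2 from 69238282 to 69342616 (minus strand). All counts are totals over a gene, without a split by exon or transcript.

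Total counts per library were between 75020072 and 87934362, and 3 counts stood for at most 0.04 CPM (counts scaled to the library size) before TMM. The CPM values of genes are after TMM. Since the count columns name only the genotype, letters a to d stand for the libraries of each genotype. Nnmt itself, the targeted gene, was at 31.8, 44.8, 68.9 and 83.0 CPM in Nnmt KO libraries a to d and at 112, 224, 134 and 84.9 CPM in control libraries a to d, with no overlap. However, Nnmt KO library d and control library d were nearly equal, and the Nnmt KO mean was 41.2% of the control mean. Nnmt differed by -1.28 on the log2 scale (standard error 0.33), at an adjusted p of 0.123 by edgeR's quasi-likelihood test and of 0.00467 by DESeq2. Nnmt KO library a stood apart from the other Nnmt KO libraries, with a TMM factor of 1.21 where the others had 0.952 to 0.977. Its 8 hepatocyte markers summed to 66974 CPM, compared with 103825 to 118554 CPM in libraries b to d, whereas the summed cholangiocyte, macrophage and stellate cell markers were higher in it. The hepatocyte markers of the tissue were abundant in all 8 libraries.

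Between the genotypes, Hsd3b7 and Nr0b2 were lower in all 4 Nnmt KO libraries than in any control library, and the other 8 genes overlapped. Hsd3b7 was at 59.8% and Nr0b2 at 64.0% of the control mean. By edgeR's test, 0 of the 10 genes passed an adjusted p of 0.05, where 0.32% of all tested genes did. DESeq2 passed 1 of them, Hsd3b7, with 3.32% of all tested genes passing. At an unadjusted p under 0.05, 2 of the 10 genes were lower and none was higher in Nnmt KO mice, whereas 7.13% of all tested genes were lower and 5.45% higher. Of all tested genes, 4.81% were lower in Nnmt KO mice without overlap between libraries, and 3.34% were higher without overlap. The median log2 fold change was -0.18 over the 10 genes, with 3 above 0 and 7 below, and 0.02 over all tested genes. In whole liver, fewer hepatocytes and less RNA per hepatocyte cannot be told apart for a single gene. The 8 hepatocyte markers had a median log2 fold change of 0.05 between the genotypes, with 5 above 0 and 3 below. They ran from -0.49 (Serpina1c) to 0.47 (Tat), with Alb (albumin) at 0.05, all named after their values were seen.

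**Figure D1:**
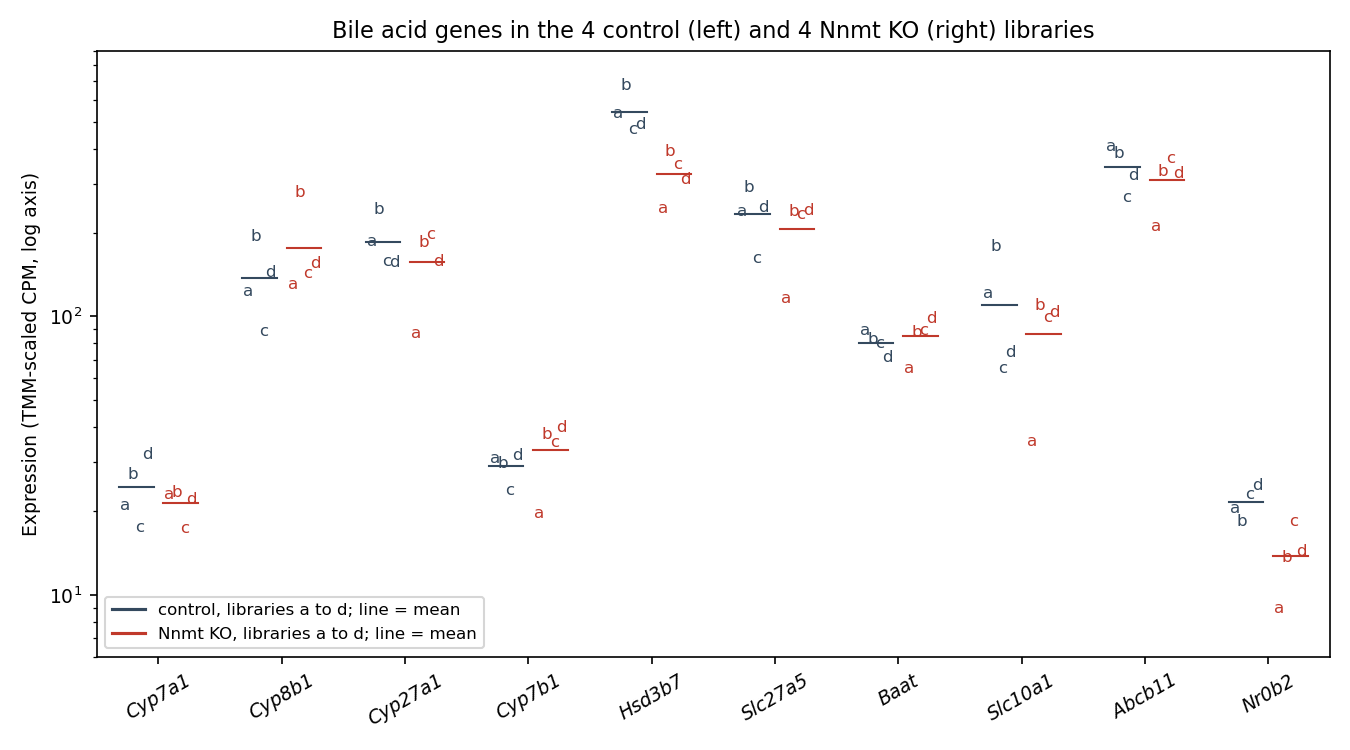
Expression of the 10 genes in TMM-scaled CPM (y axis, log scale) in each library, with control libraries on the left and Nnmt KO libraries on the right of each gene, letters for libraries and a line for the mean. Hsd3b7 (245 to 391 CPM against 468 to 674 CPM) and Nr0b2 are the genes whose genotypes do not overlap.

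Cyp7a1 encodes cholesterol 7-alpha-hydroxylase, the rate-limiting enzyme of the classic route. It was at 23.0, 23.2, 17.3 and 22.1 CPM in Nnmt KO libraries a to d and at 20.99, 27.0, 17.5 and 31.9 CPM in control libraries a to d. The genotypes overlapped, with the lowest library of each at a nearly equal level, and control libraries b and d were above every Nnmt KO library. The means were 21.4 ± 2.76 CPM in Nnmt KO mice and 24.3 ± 6.41 CPM in control mice (SD, n = 4 each), and the log2 fold change was -0.19 (95% interval -0.58 to 0.21, unadjusted p = 0.325, adjusted p = 0.708 by edgeR). It was -0.03 without control library d, -0.10 without Nnmt KO library c, -0.12 without control library b and -0.32 without control library c. Cyp7a1 (ENSMUSG00000028240) lies on chromosome 4 from 6265612 to 6275633 on the minus strand.

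Cyp8b1 encodes the sterol 12-alpha-hydroxylase that directs synthesis to cholic acid. Its level was 131, 279, 142 and 154 CPM in Nnmt KO libraries a to d, and it was 123, 194, 88.04 and 144 CPM in control libraries a to d. Nnmt KO library b was the highest of all 8, and the ranges overlapped. Its log2 fold change was 0.36 (standard error 0.27, 95% interval -0.24 to 0.96, unadjusted p = 0.209, adjusted p = 0.622 by edgeR). It was 0.05 without Nnmt KO library b, 0.20 without control library c and 0.59 without control library b.

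The alternative route starts with Cyp27a1, the mitochondrial sterol 27-hydroxylase, and goes on through Cyp7b1, the oxysterol 7-alpha-hydroxylase. Cyp27a1 was at 86.6, 184, 198 and 157 CPM in Nnmt KO libraries a to d, and at 186, 242, 157 and 156 CPM in control libraries a to d. Apart from Nnmt KO library a, which was the lowest, the Nnmt KO libraries lay within the control range. The log2 fold change of Cyp27a1 was -0.25 (standard error 0.24, 95% interval -0.77 to 0.27, unadjusted p = 0.319, adjusted p = 0.703 by edgeR). It was -0.05 without Nnmt KO library a, -0.08 without control library b and -0.38 without Nnmt KO library c.

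Cyp7b1 was at 19.6, 37.6, 35.2 and 39.8 CPM in Nnmt KO libraries a to d and at 30.9, 29.7, 23.7 and 31.8 CPM in control libraries a to d. Nnmt KO library a was below all control libraries and the other 3 Nnmt KO libraries were above them. For Cyp7b1 the log2 fold change was 0.19 (standard error 0.20, 95% interval -0.24 to 0.62, unadjusted p = 0.357, adjusted p = 0.732 by edgeR). It was 0.09 without Nnmt KO library d and 0.10 without control library c. Without Nnmt KO library a it was 0.37 (unadjusted p = 0.0116, adjusted p = 0.215 by edgeR), and Cyp7b1 was the only one of the 10 genes whose unadjusted p went below 0.05 when a library was left out without being there with all 8.

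Hsd3b7 encodes the 3-beta-hydroxysteroid dehydrogenase of C27 sterols, which both routes need after 7-alpha-hydroxylation. It was at 245, 391, 350 and 310 CPM in Nnmt KO libraries a to d and at 537, 674, 468 and 489 CPM in control libraries a to d. The highest Nnmt KO library, b, was below the lowest control library, c. The means were 324 ± 62.3 CPM and 542 ± 92.9 CPM (SD, n = 4 each), and the log2 fold change was -0.74 (standard error 0.17), which stands for 0.461 to 0.776 of the control level at 95%. The unadjusted p was 0.00115 and the adjusted p 0.0969 by edgeR, whereas DESeq2 gave an adjusted p of 0.00255. Scaling by library size only gave an adjusted p of 0.0489 by edgeR, and leaving out 1 library gave log2 fold changes between -0.85 and -0.61. Over the 12 alternatives, the adjusted p ran from 0.00255 to 0.289, and the unadjusted p was at most 0.00435.

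Hsd3b7 (ENSMUSG00000042289) lies on chromosome 7 from 127800604 to 127803802 on the plus strand. The genes around it were also mostly lower in Nnmt KO mice. Among the 131 tested genes within 5 Mb, the median log2 fold change was -0.30, against -0.14 for the 1154 tested genes of chromosome 7, and 55 of them (42.0%) had an unadjusted p under 0.05. A log2 fold change lower than that of Hsd3b7 was found in 6.11% of these neighbours. Relative to the median of its neighbours in the same library, Hsd3b7 was at 4.38 to 4.81 log2 units in Nnmt KO mice and at 4.81 to 5.34 log2 units in control mice, a difference of -0.38 with libraries that overlapped slightly (two-sided exact permutation test, p = 0.0571, where 4 mice against 4 allow no p below 0.0286). As the counts carry no alleles, a change of Hsd3b7 with the loss of Nnmt and a difference between the groups in this region of chromosome 7 cannot be told apart. Around Nr0b2, by comparison, the median of 165 tested genes was 0.01, and 22 of them (13.3%) had an unadjusted p under 0.05 by edgeR. Relative to these neighbours, Nr0b2 was at -1.06 to 0.17 log2 units in Nnmt KO mice and at 0.03 to 0.47 log2 units in control mice. This difference of -0.67 came with libraries that overlapped (two-sided exact permutation test, p = 0.0571). Hsd3b7 also overlaps 2 annotated transcripts that the count table does not list, 9430064I24Rik on the opposite strand and Gm49388 on the same strand, and reads from these cannot be told apart from its own, as the strand setting of the counting is not stated.

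**Figure D2:**
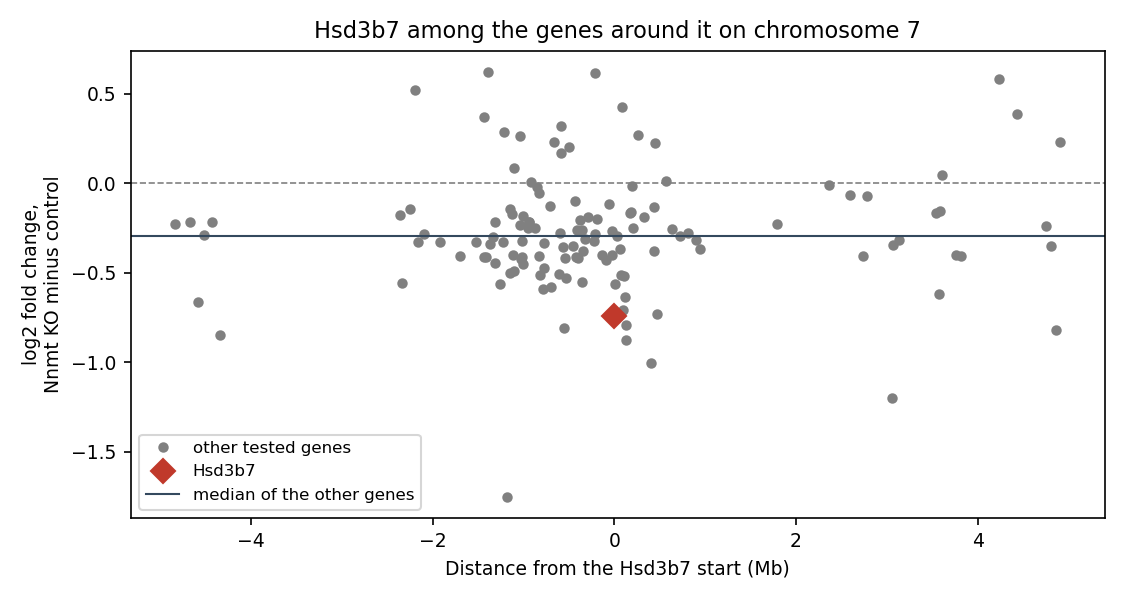
The log2 fold change between Nnmt KO and control mice (y axis) for Hsd3b7 (diamond) and the 131 tested genes within 5 Mb of its start (x axis, distance in Mb). The line is the median of these genes at -0.30, and Hsd3b7 lies below it at -0.74.

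Slc27a5 (bile acid CoA ligase, BACS) and Baat (bile acid-CoA:amino acid N-acyltransferase) join bile acids to taurine or glycine. Slc27a5 was at 116, 238, 231 and 239 CPM in Nnmt KO libraries a to d and at 238, 291, 161 and 246 CPM in control libraries a to d. Except for the low library a, the Nnmt KO libraries lay close together and inside the control range. Its log2 fold change was -0.18 (95% interval -0.71 to 0.34, unadjusted p = 0.465, adjusted p = 0.793 by edgeR), and was 0.02 without Nnmt KO library a, -0.05 without control library b and -0.32 without control library c.

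Baat was at 65.1, 87.2, 88.8 and 98.2 CPM in Nnmt KO libraries a to d and at 88.7, 82.7, 79.9 and 71.0 CPM in control libraries a to d. The genotypes overlapped, and the spread was the smallest of the 10 genes in control mice, with a coefficient of variation of 9.12%. The log2 fold change of 0.07 had the narrowest interval of the 10 genes (-0.22 to 0.37, unadjusted p = 0.594, adjusted p = 0.861 by edgeR), and ran from -0.004 without Nnmt KO library d to 0.18 without Nnmt KO library a.

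Bile acids enter hepatocytes through Slc10a1 (NTCP, the sodium-dependent taurocholate transporter) and leave for bile through Abcb11 (BSEP, the bile salt export pump). Slc10a1 was at 35.4, 109, 98.8 and 103 CPM in Nnmt KO libraries a to d and at 121, 178, 64.8 and 74.4 CPM in control libraries a to d. It had the largest spread of the 10 genes in both genotypes, with a coefficient of variation of 39.8% in Nnmt KO mice and 47.3% in control mice. The log2 fold change of -0.34 had a 95% interval of -1.15 to 0.47 (unadjusted p = 0.379, adjusted p = 0.743 by edgeR), and was 0.01 without control library b, -0.08 without Nnmt KO library a and -0.52 without control library c.

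Abcb11 was at 210, 332, 369 and 325 CPM in Nnmt KO libraries a to d and at 406, 385, 267 and 321 CPM in control libraries a to d. Nnmt KO library a was again the lowest, and the other 3 were within the control range. For Abcb11 the log2 fold change was -0.16 (95% interval -0.57 to 0.26, unadjusted p = 0.418, adjusted p = 0.768 by edgeR). It was -0.01 without Nnmt KO library a, -0.05 without control library a, -0.09 without control library b, and as low as -0.26 without control library c. The pseudogene Gm13614 and the antisense gene Gm13613, which had 5 counts in all, overlap Abcb11 on the opposite strand.

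Nr0b2 encodes SHP, the nuclear receptor without a DNA-binding domain that represses bile acid synthesis genes. It was at 8.95, 13.6, 18.390 and 14.3 CPM in Nnmt KO libraries a to d and at 20.3, 18.394, 22.9 and 24.7 CPM in control libraries a to d. The genotypes did not overlap, but Nnmt KO library c and control library b were nearly equal. The means were 13.8 ± 3.87 CPM and 21.6 ± 2.77 CPM (SD, n = 4 each). For Nr0b2 the log2 fold change was -0.64 (standard error 0.19, 95% interval -1.07 to -0.22, unadjusted p = 0.00649, adjusted p = 0.188 by edgeR). DESeq2 gave an adjusted p of 0.059. Over the 12 alternatives, the adjusted p ran from 0.059 to 0.418, the unadjusted p was at most 0.0212, and leaving out 1 library gave log2 fold changes between -0.81 and -0.48. Nr0b2 (ENSMUSG00000037583) lies on chromosome 4 from 133553376 to 133556536 on the plus strand.

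**Figure D3:**
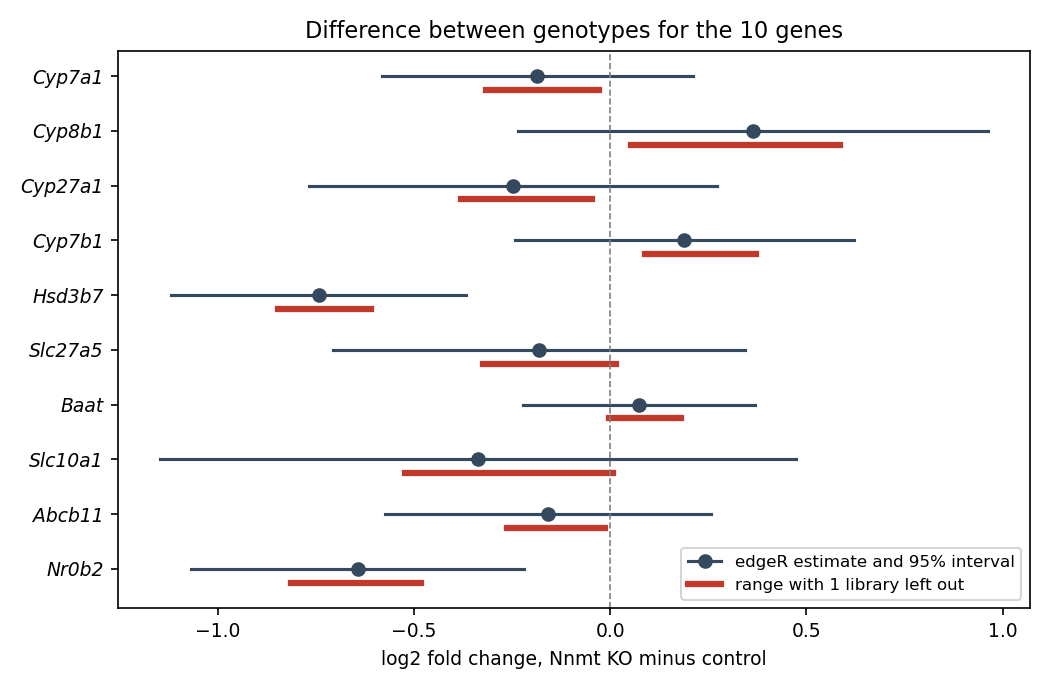
The log2 fold change, Nnmt KO minus control (x axis), of each of the 10 genes (y axis) by edgeR with its 95% interval (dark), and the range of values with 1 library left out (red). The intervals of Hsd3b7 (-1.12 to -0.37) and Nr0b2 (-1.07 to -0.22) lie below 0 and the other 8 include it.

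Ratios between genes within a library do not depend on the scaling of libraries. The log2 ratio of Cyp7b1 to Cyp27a1 counts, the successive enzymes of the alternative route, was -2.14, -2.29, -2.49 and -1.98 in the Nnmt KO and -2.59, -3.03, -2.73 and -2.30 in the control libraries, in the order a to d. All 4 Nnmt KO libraries were above 3 of the 4 control libraries, and the means differed by 0.44, but the groups overlapped (two-sided exact permutation test, p = 0.0571, adjusted over the 3 ratios p = 0.171). The log2 ratio of Cyp8b1 to Cyp7a1 counts was 2.98 ± 0.46 in Nnmt KO mice and 2.48 ± 0.29 in control mice (exact permutation test, p = 0.143, adjusted p = 0.214), and the difference of 0.51 became 0.31 without Nnmt KO library b. That of Cyp7a1 to Cyp7b1, the 7-alpha-hydroxylases of the classic and the alternative route, was -0.58 ± 0.56 and -0.28 ± 0.26 (exact permutation test, p = 0.343, adjusted p = 0.343). In Nnmt KO mice it was 0.23 in library a and between -1.02 and -0.70 in the others, and the difference of -0.30 became -0.57 without library a and -0.16 without library c.

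**Figure D4:**
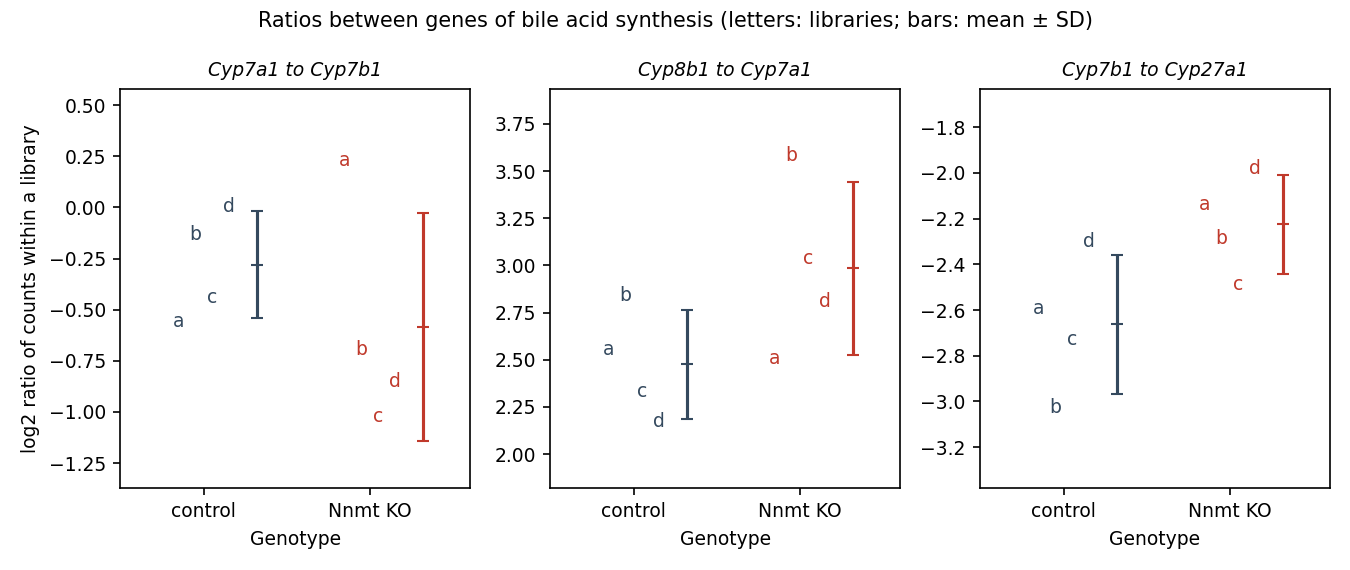
The log2 ratio of counts (y axis) between pairs of synthesis genes in each control and Nnmt KO library (x axis), with letters for libraries and bars for the mean ± SD. The ratio of Cyp7b1 to Cyp27a1 is between -3.03 and -2.30 in control libraries and between -2.49 and -1.98 in Nnmt KO libraries.

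Levels can be set side by side between genes only per length, and RPKM (counts scaled to library size and exon length) over the merged exons of each gene was used for this. In control mice, Hsd3b7 had the highest level at a mean of 196 RPKM, and its range did not overlap that of Slc27a5, the next, at 95.9 RPKM. Cyp27a1 (85.3 RPKM), Cyp8b1 (70.4 RPKM), Abcb11 (67.0 RPKM), Slc10a1 (49.8 RPKM) and Baat (41.5 RPKM) followed, and each neighbouring pair from Slc27a5 to Baat overlapped in range. Nr0b2 at 19.1 RPKM, Cyp7b1 at 13.4 RPKM and Cyp7a1 at 5.83 RPKM were lower, each without overlap with the gene before it. Cyp7a1 thus had the lowest level of the 10 genes on this diet.

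The libraries of 1 genotype differed from each other in most of these genes at once. Nnmt KO library a had the lowest level of its genotype for 9 of the 10 genes, the exception being Cyp7a1, and its median deviation from the genotype mean was -0.55 log2 units. Control library c had the lowest level of its genotype for 7 of the 10 genes, with a median deviation of -0.32. In both libraries, the summed hepatocyte markers were the lowest of the genotype, 66974 CPM in Nnmt KO library a and 77576 CPM in control library c. The sum of the 8 cholangiocyte markers was the highest of the genotype, at 291 CPM in Nnmt KO library a (96.7 to 189 CPM in the rest of its genotype) and at 175 CPM in control library c (55.3 to 95.8 CPM in the rest). The 8 stellate cell and fibroblast markers summed to 905 CPM in Nnmt KO library a, compared with 470 to 519 CPM in libraries b to d and 359 to 560 CPM in control mice. The 8 Kupffer cell and macrophage markers summed to 1109 CPM in it, against 649 to 699 CPM and 472 to 1023 CPM. Single genes, named after their values were seen, weighed on these sums, as Spp1 was at 243 CPM and Lyz2 at 527 CPM in Nnmt KO library a. Not every marker was highest there among the Nnmt KO libraries. The exceptions were Cftr, Slc10a2, Tspan8, Vsig4, Marco, Timd4, Reln and Clec4f, and Clec4f was lowest there, at 96.1 CPM. Between the genotypes, the log2 fold change was above 0 for 8 of 8 cholangiocyte markers (median 0.43), 8 of 8 stellate cell and fibroblast markers (median 0.37) and 7 of 8 Kupffer cell and macrophage markers (median 0.26), while the hepatocyte markers had a median of 0.05 and 7995 of the 15291 tested genes were above 0. Of these 4 lists of 8 markers, none held a gene past an adjusted p of 0.05 by edgeR. At an unadjusted p under 0.05, 2, 3, 0 and 1 markers were higher, where 5.45% of all tested genes were. The part of the cell type makeup in the levels of the 10 genes was not tested. The number of genes without overlap between genotypes was 3 when Nnmt KO library a and control library c were both left out, the third being Cyp7b1, which was then higher in Nnmt KO mice, and 2 with all libraries. With these 3 libraries against 3, 10.7% of all tested genes were lower and 10.3% higher in Nnmt KO mice without overlap, so nothing is read from the larger count.

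**Figure D5:**
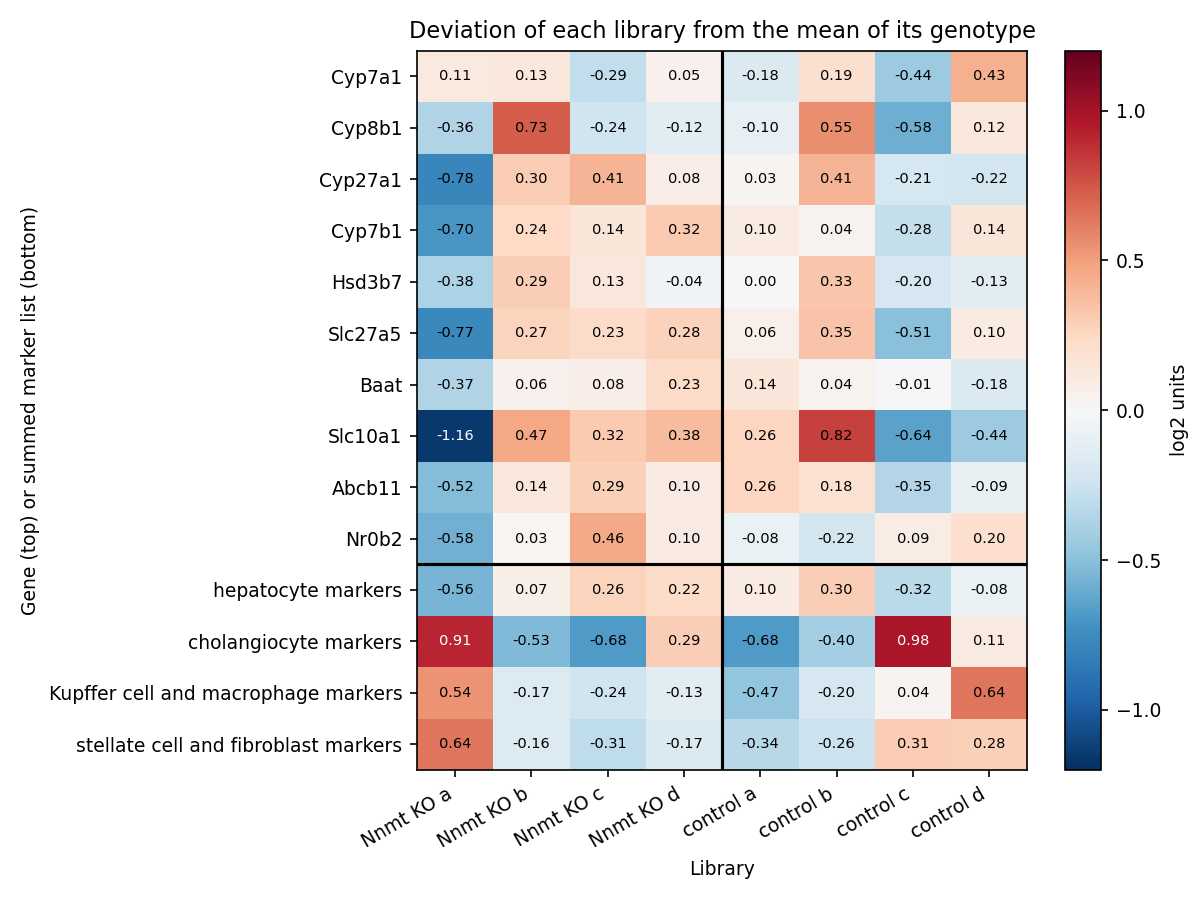
Deviation of each library (x axis) from the mean of its genotype, in log2 units (colour and number), for the 10 genes (top) and for summed marker lists of cell types (bottom). Nnmt KO library a is low for every gene but Cyp7a1 and for the sum of hepatocyte markers, and high for the sums of cholangiocyte, macrophage and stellate cell markers.

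After the genotype mean was taken off, Pearson's r over the 8 libraries had a median of 0.68 among the 45 pairs of the 10 genes and ran from -0.37 to 0.94. The highest values were 0.94 between Cyp27a1 and Slc10a1, 0.94 between Cyp7b1 and Slc27a5, and 0.94 between Cyp27a1 and Hsd3b7. These values are a description of libraries in which the genes share the scaling and the mix of cells, and Nnmt KO library a deviated most. The pairs with Cyp7a1 had a median r of 0.04, from -0.37 with Baat to 0.62 with Cyp8b1. Low values were also found for Cyp8b1 with Nr0b2 (-0.04) and with Baat (0.20), and for Nr0b2 with Hsd3b7 (0.32) and with Slc10a1 (0.36). Of 12240 genes with at least 1 CPM on average, the 5 whose deviations were most like those of Cyp7a1 were Alox12 (r = 0.97), Myzap (0.95), Atrnl1 (0.93), Galnt18 (0.93) and S100a8 (0.93). As the highest of 12240 values over 8 libraries, these can be high by chance, which was not tested.

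Of 51 other genes of bile acid metabolism, 50 were tested, 2 rose and none fell at an adjusted p of 0.05 by edgeR, which 0.32% of all tested genes passed. Their median log2 fold change was 0.07, with 30 above 0 and 20 below. At an unadjusted p under 0.05, 7 of the 50 were higher and 2 lower in Nnmt KO mice, beside 5.45% and 7.13% of all tested genes. The 2 that rose were the sulfotransferase genes Sult2a1 and Sult2a2, whose enzymes sulfate hydroxysteroids and bile acids for excretion. Both lie on chromosome 7, as do Hsd3b7 and Slc27a5, with Sult2a2 from 13733505 to 13779636 and Sult2a1 from 13796246 to 13837409. They were not compared with the genes around them, and a difference between the groups in this region was not tested. Sult2a1 was at 2.23, 3.77, 3.24 and 4.24 CPM in Nnmt KO libraries a to d and at 0.241, 0.132, 0.53 and 0.381 CPM in control libraries a to d. The genotypes were far apart, by 3.38 on the log2 scale (standard error 0.39, adjusted p = 0.00958 by edgeR), although its level was low. Sult2a2 was at 10.4, 31.0, 27.1 and 29.7 CPM in Nnmt KO mice and at 2.15, 0.66, 5.54 and 3.67 CPM in control mice, which is 3.02 on the log2 scale (standard error 0.53, adjusted p = 0.0496 by edgeR). Under the alternatives the adjusted p ran from 8.19e-16 to 0.0561 for Sult2a1 and from 0.000574 to 0.216 for Sult2a2, so that each call was lost under at least 1 of them. As the genes of this family are similar in sequence, the authors' counting could have split reads among them, and the values of both are uncertain to that extent. They were listed with 4 further detoxification genes, named after their values were seen. Sult2a8, of the same family, was at 16.3 CPM in Nnmt KO mice and 15.4 CPM in control mice (log2 fold change 0.08, unadjusted p = 0.841 by edgeR). The log2 fold change was -0.32 for Ugt1a1, 0.25 for Cyp3a11 and 0.67 for Cyp2b10, each with an unadjusted p of at least 0.0736 by edgeR.

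Among 13 other synthesis enzymes, with a median log2 fold change of 0.01, none passed the adjusted threshold. At an unadjusted p under 0.05, 1 was higher, where 5.45% of all tested genes were. This was Akr1c6, an aldo-keto reductase of steroids, at 303 to 492 CPM in Nnmt KO libraries and 253 to 282 CPM in control libraries (log2 fold change 0.45, unadjusted p = 0.0135, adjusted p = 0.248 by edgeR). Of 4 other uptake transporters, the organic anion transporter gene Slco1a4 was higher, at 49.6 to 89.4 CPM against 49.1 to 56.9 CPM (log2 fold change 0.50, unadjusted p = 0.0121, adjusted p = 0.24 by edgeR), and Nnmt KO library a alone lay within the control range. None of the 8 other canalicular export genes had an unadjusted p under 0.05 by edgeR, and the smallest p was that of the sterol exporter gene Abcg8 (log2 fold change -0.29, unadjusted p = 0.216, adjusted p = 0.63). Of 4 basolateral export genes, 3 were tested, and Abcc4 (MRP4, an exporter to blood) was at 43.7 to 63.1 CPM in Nnmt KO libraries and 26.8 to 49.2 CPM in control libraries (log2 fold change 0.52, unadjusted p = 0.0137, adjusted p = 0.25 by edgeR).

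Of 16 sensors and regulators, none passed the adjusted threshold by edgeR, and 2 were higher and 2 lower at an unadjusted p under 0.05, where 5.45% of all tested genes were higher and 7.13% lower. Ppargc1a (PGC-1alpha), a coactivator of HNF4A and other nuclear receptors, was at 15.4, 18.5, 23.1 and 26.6 CPM in Nnmt KO libraries a to d and at 12.9, 12.3, 10.5 and 11.8 CPM in control libraries a to d. No Nnmt KO library overlapped the controls, and the log2 fold change was 0.82 (standard error 0.17, unadjusted p = 0.000409, adjusted p = 0.0711 by edgeR, adjusted p = 0.00106 by DESeq2). Prox1, a homeobox corepressor of nuclear receptors, did not overlap either, at 63.2 to 84.1 CPM against 46.3 to 60.1 CPM (log2 fold change 0.49, adjusted p = 0.12 by edgeR and 0.0153 by DESeq2). Foxa2, a forkhead factor of hepatocyte and bile duct genes, was lower without overlap, at 11.3 to 19.0 CPM against 21.02 to 25.2 CPM (log2 fold change -0.52, unadjusted p = 0.00716, adjusted p = 0.195 by edgeR). Mafg, a repressor of bile acid synthesis genes induced by FXR, had a log2 fold change of -0.31 (unadjusted p = 0.0236, adjusted p = 0.302 by edgeR), with libraries that overlapped. FXR itself, Nr1h4, was at 73.4 CPM in Nnmt KO mice and 69.4 CPM in control mice (unadjusted p = 0.545, adjusted p = 0.836 by edgeR), and it was named after its value was seen.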

How the data were processed

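The study's methods state that reads were aligned and quantified with HISAT2, and the submitters' processing notes also name StringTie and mm10. The table that the authors deposited holds raw counts, as whole numbers, of 33212 genes, and 12414 of these were at 0 in all libraries. The annotation and the strand setting of the counting are not given in the sources used here, and the methods and the labels name different library kits. The 8 columns carry the genotype and no mouse number.

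Low genes were removed with filterByExpr (minimum count 10), and the rest scaled by TMM and tested with edgeR 4.0.16 (quasi-likelihood test, R 4.3.3) on all 8 libraries, with Benjamini-Hochberg adjustment over the 15291 genes tested. DESeq2 1.42.0 was an alternative. The scripts were tested on simulated data. Intervals are at 95%. No pair of libraries of a genotype was a copy, with a chi-square per degree of freedom between 42.1 and 267. The p-values measure the spread between 4 libraries per genotype. Total counts were 75020072 to 87934362, and 3 counts are 0.0341 to 0.04 CPM before TMM, a floor that covers counting error only. Positions and exon lengths are from GENCODE M21 on GRCm38 (mm10), which held 15146 of the tested genes (99.1%). Promoter windows are from RefSeq.

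The 10 genes and the lists were chosen with earlier results of these data known. The genes named are the 10, Nnmt, the genes of the other bile acid lists (not of the marker lists) with an unadjusted p under 0.05 by edgeR, the gene with the smallest p of such a list that had none, and the 5 genes most correlated with Cyp7a1 (mean of at least 1 CPM). The alternatives were other scalings, no filter, DESeq2, each library left out, an unadjusted threshold and, for ratios, counts plus 1. Chosen after the data were seen were the comparisons of Hsd3b7 and Nr0b2 with their neighbours and the counts of genes without overlap when libraries were left out. The study's other experiments were not analysed here.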

Additional observations from a re-analysis of the deposited data

Results flagged for a closer look

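Among 50 groups of 4 libraries examined, 4 held a library far from the other 3, where chance gives about 1 in 20 groups, or 2.5. Cyp8b1 was at 279 CPM in Nnmt KO library b and at 131 to 154 CPM in the other Nnmt KO libraries. Slc27a5 was at 116 CPM in Nnmt KO library a and at 231 to 239 CPM in the others. Slc10a1 was at 35.4 CPM in Nnmt KO library a and at 98.8 to 109 CPM in the others. For the TMM factor, Nnmt KO library a had 1.21 and the others 0.952 to 0.977. Of these 4 values, 3 belong to Nnmt KO library a, so they are not independent of each other.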

How the results depend on the processing

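The log2 fold changes of the 10 genes were computed under 12 alternatives, 120 values in all. Of these, 115 kept their direction and their side of an adjusted p of 0.05, and 2 newly passed it, both for Hsd3b7 (-0.69 with scaling by library size only and -0.74 with DESeq2). The direction turned for 3, all close to 0 and none of them past the threshold, which were Slc27a5 at 0.016 without Nnmt KO library a (range -0.32 to 0.016 with 1 library left out), Baat at -0.0041 without Nnmt KO library d (-0.0041 to 0.18) and Slc10a1 at 0.0084 without control library b (-0.52 to 0.0084). The number of the 10 genes called was 0, 1 with library size only, 1 with DESeq2 and 2 at an unadjusted p. The number of all genes called was 49, 30 with DESeq2's size factors, 22 with library size only, 8 without a filter, 508 with DESeq2, 1925 at an unadjusted p, and between 6 and 149 with 1 library left out, the 149 without Nnmt KO library a. The cause of these differences was not tested. The 3 ratios kept their direction and did not pass a p of 0.05 under any alternative. Relative to its neighbours within 5 Mb, Hsd3b7 was lower by a log2 difference of -0.38 (exact permutation p = 0.0571). The median log2 fold change of all genes was 0.02 with TMM and with DESeq2's size factors and 0.07 with library size only. No paired analysis was possible because the count columns carry no mouse number. At 4 mice per genotype, the 95% intervals of the 8 overlapping genes include changes of up to -1.15 (Slc10a1) and 0.96 (Cyp8b1) on the log2 scale.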

Other observations

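Transporter genes at very low levels were also among the listed genes, and they are named here after their values were seen. Slco1a1, a hepatic organic anion uptake transporter, was at 1.001 ± 0.698 CPM in Nnmt KO mice and 0.95 ± 0.694 CPM in control mice (SD, n = 4 each), whereas its relative Slco1b2 was at 152 and 141 CPM. Slc51a and Slc51b encode the partner subunits of OST, a basolateral bile acid exporter. Slc51a had no counts in 5 of the 8 libraries, was at 0.0807 to 0.167 CPM in the other 3 and was too low to be tested, and Slc51b was at 2.84 and 2.76 CPM (log2 fold change 0.05, adjusted p = 0.964 by edgeR). The 6 markers of T, B and NK cells summed to 4.56 to 5.43 CPM in Nnmt KO libraries and 2.87 to 3.35 CPM in control libraries, without overlap, and none of the 6 passed the adjusted threshold by edgeR, 1 having an unadjusted p under 0.05, where 5.45% of all tested genes were higher. This was Cd8a (log2 fold change 1.44, unadjusted p = 0.00143, adjusted p = 0.106 by edgeR), named after its value was seen. The 6 endothelial markers summed to 183 to 210 CPM and 144 to 278 CPM.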
